A study of Mus musculus with 15 samples.

Results

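Esrrb and Nr5a2, a pair of orphan nuclear receptor genes, were examined for H3K4me1 and H3K27ac in mouse embryonic stem cells (ESCs) and in 2 kinds of expanded potential stem cells (EPSCs). The members were taken by name, as 2 of the 22350 protein-coding genes of the GENCODE M1 annotation on the 20 chromosomes of the peak lists, and each was read in its annotated span (mm9) widened by 50 kb on either side. All cells came from the 129SV J1 line, and the study used 15 ChIP-seq libraries, 2 for each mark and state and 1 input for each state. ESCs were grown in serum medium with LIF (1000 units/mL), the GSK3 inhibitor CHIR99021 (3 µM) and the MEK inhibitor PD0325901 (1 µM), on feeder fibroblasts or gelatin. D-EPSCs were grown in N2B27 with serum replacement, LIF (1000 units/mL), CHIR99021 (3 µM), dimethindene maleate (DiM, 2 µM) and minocycline hydrochloride (MiH, 2 µM). L-EPSCs were grown in DMEM/F12 with serum replacement, LIF (1000 units/mL), CHIR99021 (3 µM), PD0325901 (1 µM), the Src family inhibitor A-419259 (0.3 µM), the tankyrase inhibitor XAV939 (5 µM), JNK inhibitor VIII (4 µM) and the p38 inhibitor SB203580 (10 µM). Base medium, serum and inhibitors therefore differ together between the states, and their parts in any difference cannot be told apart.

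Nuclear receptors are transcription factors that bind DNA through zinc fingers, and the orphan members act without a known physiological ligand or were found before one was known. Esrrb, the estrogen-related receptor beta, belongs to the core of the naive pluripotency network and sustains self-renewal downstream of GSK3 inhibition, the action of CHIR99021. Nr5a2, also called LRH-1, binds regulatory DNA of Pou5f1 and can replace Oct4 in reprogramming cocktails. Both can bind as monomers to a single recognition element of similar sequence, without the partner that many nuclear receptors need. H3K4me1 marks enhancers whether or not they are active, and H3K27ac marks active enhancers and promoters.

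The data analysed are 6 peak lists, 1 for each mark and state, which give positions and no signal height. No difference below therefore has a replicate check or a test, the depth behind a peak is unknown, and the absence of a peak means absence from a list. The H3K27ac lists held 64342 peaks over 107 Mb in ESCs, 32782 peaks over 44.4 Mb in D-EPSCs and 26966 peaks over 34.3 Mb in L-EPSCs. The H3K4me1 lists were closer in size, with 107222, 102751 and 105306 peaks over 221, 187 and 173 Mb. Markers of cell type were read in the H3K27ac lists only. All 6 pluripotency markers read had an H3K27ac peak within 1 kb of their start in each state. None of 6 fibroblast, 4 trophoblast and 4 primitive endoderm markers had one in any state. The share of all genes with such a peak is not given here, so these counts alone do not establish identity.

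The start sites of both genes are shown first, because the 2 starts of Nr5a2 differed in their marks between the states. Esrrb (ENSMUSG00000021255.10) lies on the plus strand of chromosome 12, at chr12:87702067-87862578, with 7 annotated transcripts from 5 start sites. Nr5a2 (ENSMUSG00000026398.8) lies on the minus strand of chromosome 1, at chr1:138740161-138857004, with 2 transcripts, Nr5a2-201 and Nr5a2-202. Neither window holds another protein-coding gene. The 250 bases before 5 of the starts are given from the mm9 reference genome in the direction of transcription. They are in lower case throughout, since none holds either receptor motif described below.
Before Nr5a2-201, the first start (chr1:138857005-138857254, minus strand): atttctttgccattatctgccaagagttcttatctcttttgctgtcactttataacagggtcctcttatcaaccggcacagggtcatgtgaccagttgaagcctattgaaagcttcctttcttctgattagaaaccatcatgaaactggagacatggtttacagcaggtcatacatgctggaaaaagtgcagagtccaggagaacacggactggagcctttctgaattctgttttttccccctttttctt
Before Nr5a2-202, inside intron 1 (chr1:138850208-138850457, minus strand): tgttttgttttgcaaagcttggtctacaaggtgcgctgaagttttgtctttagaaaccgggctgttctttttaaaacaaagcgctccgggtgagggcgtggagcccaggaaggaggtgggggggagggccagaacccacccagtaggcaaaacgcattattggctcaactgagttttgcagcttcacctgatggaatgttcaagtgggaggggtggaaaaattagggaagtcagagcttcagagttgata
Before Esrrb-001, the first start (chr12:87701817-87702066, plus strand): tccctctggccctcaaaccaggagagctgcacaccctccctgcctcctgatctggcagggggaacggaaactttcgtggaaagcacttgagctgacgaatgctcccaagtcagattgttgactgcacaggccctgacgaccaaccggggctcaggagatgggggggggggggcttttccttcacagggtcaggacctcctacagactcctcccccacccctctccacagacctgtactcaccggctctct
Before Esrrb-002, Esrrb-003 and Esrrb-201 (chr12:87762344-87762593, plus strand): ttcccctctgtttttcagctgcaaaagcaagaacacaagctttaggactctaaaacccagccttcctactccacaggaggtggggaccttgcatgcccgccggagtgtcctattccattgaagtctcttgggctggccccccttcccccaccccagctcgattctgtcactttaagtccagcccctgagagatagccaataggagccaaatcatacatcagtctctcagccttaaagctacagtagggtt
Before Esrrb-005, at the second exon (chr12:87810817-87811066, plus strand): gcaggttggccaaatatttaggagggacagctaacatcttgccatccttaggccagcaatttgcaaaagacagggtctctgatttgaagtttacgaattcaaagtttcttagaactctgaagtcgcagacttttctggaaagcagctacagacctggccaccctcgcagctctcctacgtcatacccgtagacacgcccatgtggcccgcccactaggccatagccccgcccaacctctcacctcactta
Their GC content was 42.4% before Nr5a2-201 and 49.6% before Nr5a2-202, with 2 and 6 CpG dinucleotides. It was 60.8% before Esrrb-001, 52% before Esrrb-002 and 51.2% before Esrrb-005, with 6, 3 and 8 CpG dinucleotides.

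The 2 starts of Nr5a2 parted between the states. In ESCs a single H3K27ac peak of 10884 bp ran over both, at chr1:138846303-138857186. In the EPSCs the upstream start was outside every H3K27ac peak, whereas the start inside intron 1 stayed within a peak of 5023 bp in D-EPSCs or 4736 bp in L-EPSCs. The nearest acetylated base to the Nr5a2-201 start was 2.01 kb away in D-EPSCs and 1.46 kb away in L-EPSCs, so a reading within 2.5 kb of a start counts both starts as acetylated in every state. The transcripts from these starts also differ in their coding sequence, as the annotated start codon lies 137 bp after the Nr5a2-201 start, in exon 1, and 4827 bp of genome after the Nr5a2-202 start, in exon 3.

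H3K4me1 at the same starts also differed between the states. The first base of Nr5a2-201 was inside an H3K4me1 peak in ESCs, and the nearest such peak lay 0.812 kb away in D-EPSCs and 0.947 kb away in L-EPSCs. At Nr5a2-202 the first base was inside an H3K4me1 peak in L-EPSCs alone, with the nearest peak 0.299 kb away in ESCs and 0.319 kb away in D-EPSCs. Around this start ESCs had a stretch of 2786 bp with H3K27ac and no H3K4me1, at chr1:138847720-138850505, and D-EPSCs had one of 1340 bp. In L-EPSCs an H3K4me1 peak of 9900 bp covered the whole of it.

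**Figure D1:**
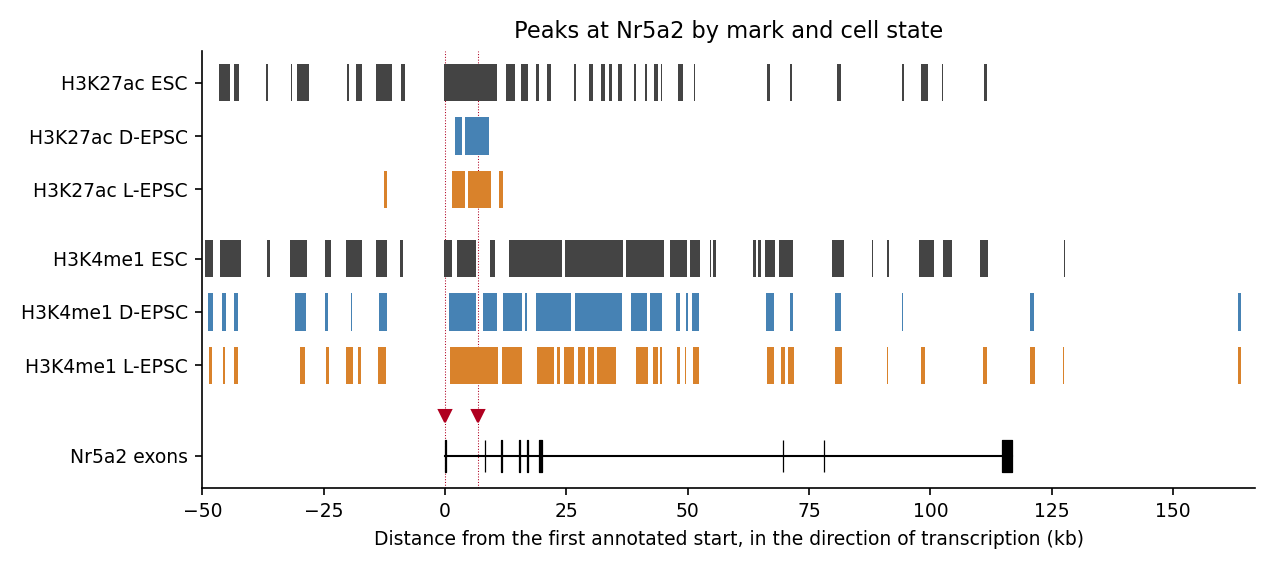
Peaks of each list at Nr5a2 against the distance from its first annotated start in kb, with exons of Nr5a2-201 as black bars and the 2 annotated starts as red triangles. Grey bars are ESC peaks, blue D-EPSC and orange L-EPSC. The 32 ESC H3K27ac peaks spread over the gene and its upstream flank, and the 2 D-EPSC and 4 L-EPSC peaks gather around the second start or, for 1 L-EPSC peak, upstream of the gene.

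Over the whole Nr5a2 window the H3K27ac peaks of ESCs were mostly absent from the EPSC lists. ESCs had 32 peaks over 39.8 kb, which is 18.3% of the 217 kb window. D-EPSCs had 2 peaks over 6.54 kb and L-EPSCs 4 peaks over 8.72 kb. The log2 ratio of covered bases to ESCs was -2.60 in D-EPSCs and -2.19 in L-EPSCs, more than 2-fold lower in each. This has to be read against all genes, since 65.5% of the 15434 genes with at least 1 kb of ESC H3K27ac were at least 2-fold lower in D-EPSCs, as were 82.2% in L-EPSCs. The median ratios of all genes were -1.36 and -1.95. In D-EPSCs 13.9% of the genes had a lower ratio than Nr5a2, and in L-EPSCs 41.9% did, so that in L-EPSCs Nr5a2 stood near the middle of all genes. With windows of the gene span alone these shares were 37.8% and 60.4%, so the place of Nr5a2 depends on the window. The lists differ in length and in the narrow peaks they hold. With each list cut to its widest peaks up to the same number of covered bases, the ESC list kept only the 10.9 kb around the starts, and the ratios were -0.74 and -0.32. The medians of all genes were then -0.60 and -0.62, with 44.3% and 64.4% of 5578 genes lower than Nr5a2, which was thus above the L-EPSC median. Cut to the same number of peaks, the lists gave ratios of -2.00 and -1.58.

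Besides the first start, the EPSC lists lacked the acetylation of many distal sites of Nr5a2. When the peaks of the 3 states were joined where they overlapped or touched, 33 H3K27ac regions resulted. Of the 32 regions with an ESC peak, 30 had no peak of either EPSC, beside 60.4% of such regions in the genome. Of the 30, 22 lay within the gene and 8 upstream of it, each 230 to 2453 bp wide. The widest were chr1:138885025-138887477 and chr1:138901373-138903627, which lie 28.0 to 30.5 kb and 44.4 to 46.6 kb upstream of the first start, and chr1:138842509-138844460 in intron 3. The region chr1:138885025-138887477 contains an annotated U7 small nuclear RNA gene, chr1:138886788-138886847. The upstream region chr1:138867999-138871225, was acetylated over 3227 bp in ESCs and over 569 bp in L-EPSCs, and was not in the D-EPSC list. The only region without an ESC peak was chr1:138845052-138845871, an L-EPSC peak of 820 bp over exon 3, the exon of the Nr5a2-202 start codon.

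Split by position, intronic acetylation at Nr5a2 covered 24.3 kb in ESCs but 4.48 kb in D-EPSCs and 5.95 kb in the L-EPSC list. The upstream 50 kb held 12.1 kb, 0 kb and 0.569 kb. Bases within 1 kb of a start came to 3.18 kb in ESCs and 2.00 kb in each EPSC. All of the 6.54 kb acetylated in D-EPSCs lay inside ESC peaks, most of it intronic.

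H3K4me1 at Nr5a2 was reduced to a smaller extent. ESCs had 31 peaks over 77.0 kb, D-EPSCs 24 peaks over 51.5 kb and L-EPSCs 32 peaks over 48.5 kb. The log2 ratios to ESCs were -0.58 and -0.67, beside medians of -0.16 and -0.35 over 18477 genes, with 14.2% and 22.5% of genes lower. Neither Nr5a2 nor Esrrb passed 2-fold for this mark, which 3.45% of genes did in D-EPSCs and 6.95% in L-EPSCs in the lower direction. The number of peaks did not follow the covered bases in L-EPSCs, where the 32 peaks were narrower, with a median of 886 bp against 1760 bp in ESCs.

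Of the 31 joined H3K4me1 regions at Nr5a2, 15 were present in all states, 9 in ESCs only, 4 in ESCs and 1 EPSC and 3 in EPSCs only. The widest were present in all states. The first of these, chr1:138820346-138845211, runs from intron 6 to intron 3 and was covered over 22748 bp in ESCs and 21287 bp in D-EPSCs, with 16897 bp in L-EPSCs. The next were chr1:138846158-138857126 around the starts and chr1:138811817-138819625 in intron 6. The widest ESC-only regions were chr1:138752564-138754474 and chr1:138756331-138757389 in intron 8 and chr1:138792992-138793607 in intron 6. The widest in ESCs and 1 EPSC, each time L-EPSCs, were chr1:138757516-138759275, chr1:138745121-138746766 and chr1:138729179-138729612. The EPSC-only regions, chr1:138735520-138736433, chr1:138692929-138693659 and chr1:138762564-138762855, were each under 1 kb wide.

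Many sites at Nr5a2 without EPSC acetylation carried the enhancer mark in the EPSC lists, as such sites did in the genome. Among the 30 ESC-only H3K27ac regions, 29 overlapped an H3K4me1 peak in ESCs, and 22 and 24 did so in D-EPSCs and L-EPSCs. An overlap of 1 bp was enough. It was 10 of 372 bp at chr1:138830104-138830475 in D-EPSCs and 19 of 407 bp at chr1:138817598-138818004 in L-EPSCs. The corresponding shares of all ESC-only regions in the genome were 64.2% in D-EPSCs and 60.9% in L-EPSCs. Counted in bases, 52.8% of the ESC-acetylated bases at Nr5a2 were under H3K4me1 alone in D-EPSCs and 46.2% in L-EPSCs. Over the genome these shares were 41.1% and 42.1%, so the L-EPSC value was near that of the genome. Another 30.7% and 34.0% were under neither mark, beside 26.4% and 31.2% in the genome, and 16.4% and 19.9% were still acetylated.

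**Figure D2:**
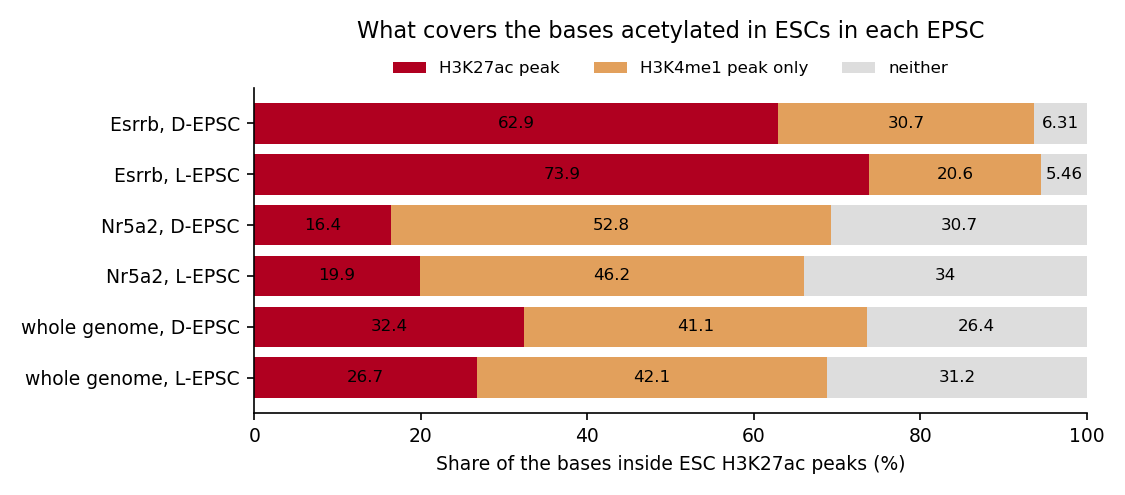
Share of the bases inside ESC H3K27ac peaks, in percent, that lie in an EPSC H3K27ac peak (red), in an EPSC H3K4me1 peak only (orange) or in neither (grey), for each gene window and for the whole genome. Esrrb kept 62.9% and 73.9% acetylated and Nr5a2 16.4% and 19.9%, with the genome at 32.4% and 26.7%. Under H3K4me1 alone were 52.8% and 46.2% at Nr5a2 and 41.1% and 42.1% in the genome.

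Esrrb, by comparison, kept 62.9% of its ESC-acetylated bases in D-EPSCs and 73.9% of them in L-EPSCs. Its window of 261 kb held 13 H3K27ac peaks over 62.1 kb in ESCs, 16 peaks over 41.4 kb in D-EPSCs and 8 peaks over 47.6 kb in L-EPSCs. The log2 ratios were -0.59 and -0.38, and neither passed 2-fold. The ratio was higher than that of 80.1% of genes in D-EPSCs, and of 93.5% in L-EPSCs. With lists of equal covered bases it was higher than that of 63.4% and 78.6% of genes. The sign depends on how the shorter EPSC lists are treated. As a share of all covered bases of its list, Esrrb had log2 ratios of 0.69 and 1.26, with lists of equal covered bases they were -0.30 and 0.04, and by number of peaks they were 0.30 and -0.70. Esrrb was above Nr5a2 in both EPSCs with equal covered bases and by number of peaks. The share of a list shifts both genes alike, so it cannot change their order.

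**Figure D3:**
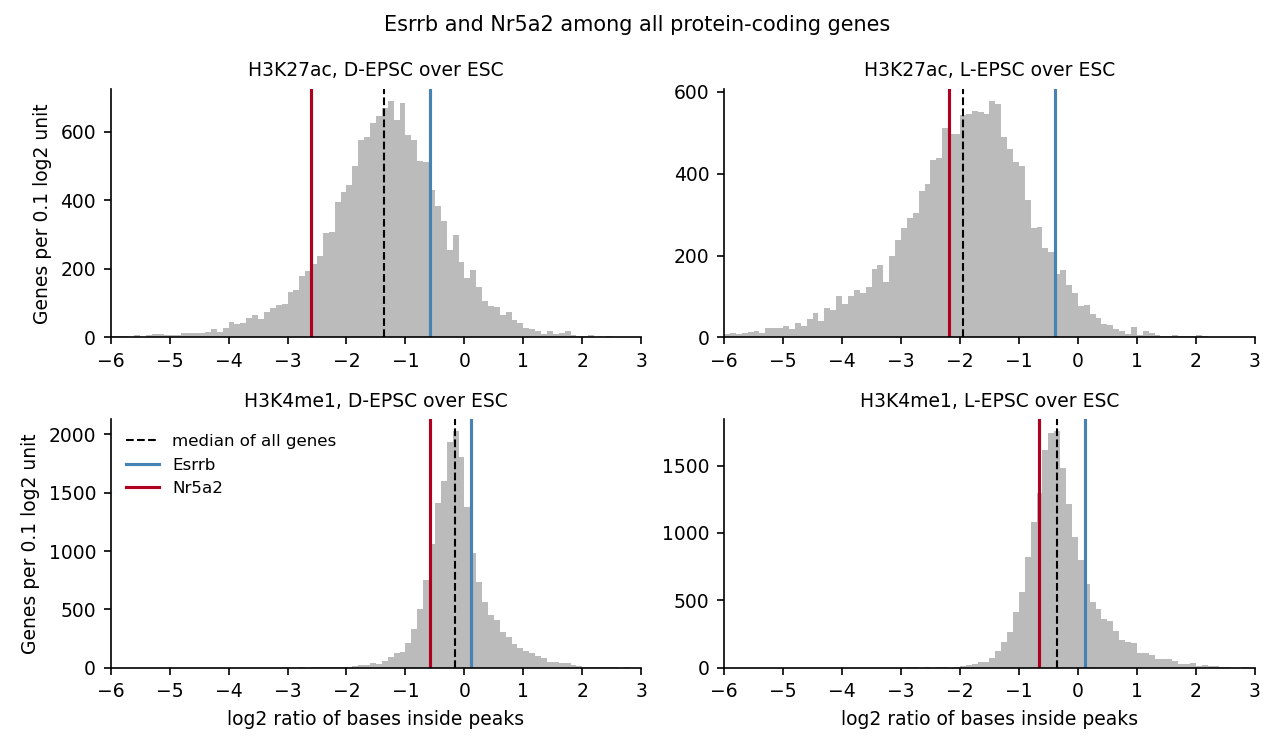
Histograms of the log2 ratio of bases inside peaks, EPSC over ESC, for the protein-coding genes with at least 1 kb of ESC peaks, in bins of 0.1. Genes with no EPSC peak (657 and 1331 for H3K27ac, 31 and 28 for H3K4me1) have no ratio and are not drawn. The dashed line is the median of all genes, blue is Esrrb and red Nr5a2, and Esrrb lies to the right of the median and Nr5a2 to its left in each panel. With lists of equal covered bases the H3K27ac ratio of Nr5a2 in L-EPSCs was to the right of the median (-0.32 against -0.62). So it was with the gene span alone (-1.75 against -2.31), with 10 kb on either side (-1.805 against -2.10) and with the widest 50% of each list (-1.92 against -2.10). Under the other alternatives it stayed to the left.

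Most of the acetylation of Esrrb lay in a single domain over the body of the gene. The joined region chr12:87807527-87855345, of 47819 bp, runs from the end of intron 1 to exon 6. It was covered over 46397 bp in ESCs by 3 peaks, over 35989 bp in D-EPSCs by 10 peaks and over 43753 bp in L-EPSCs by 3 peaks. The D-EPSC coverage of the domain was thus broken into more pieces. The widest single H3K27ac peaks were 21918 bp in ESCs, the rank of 105 by width among the 64342 of that list, 15796 bp in D-EPSCs (rank 35 of 32782) and 17975 bp in L-EPSCs (rank 16 of 26966). Of the bases acetylated in D-EPSCs at Esrrb, 94.5% were inside ESC peaks, and 96.3% of those in L-EPSCs, beside 78.4% and 83.6% in the genome.

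Outside this domain 2 shared regions of intron 1 and a shared region reaching into exon 7 were narrower in both EPSCs, and others differed in either direction. In intron 1, chr12:87792901-87797827 was acetylated over 4927 bp in ESCs, but only 668 bp in D-EPSCs or 617 bp in L-EPSCs. Also in intron 1, chr12:87804661-87806897 was covered over 2237, 972 and 1444 bp. From intron 6 into exon 7, chr12:87859495-87861452 was covered over 1853, 766 and 965 bp. In intron 6, chr12:87856988-87858915 was covered over 1413, 1928 and 543 bp, so that D-EPSCs had the widest peak there. The widest of the 5 ESC-only regions were chr12:87862584-87864272, just after the end of the gene, and chr12:87790746-87791991 and chr12:87802840-87803648 in intron 1. Of the 11 regions with an ESC peak, 5 were ESC only, and all 5 overlapped an H3K4me1 peak in L-EPSCs and 3 in D-EPSCs. At chr12:87789816-87790390 the overlap in L-EPSCs was only 2 bp. The corresponding shares of all ESC-only regions in the genome were 60.9% in L-EPSCs and 64.2% in D-EPSCs. A region of intron 1, chr12:87736681-87737192, was shared by ESCs (428 bp) and D-EPSCs (484 bp). Each EPSC had 1 region of its own in intron 1, chr12:87782150-87782727 in D-EPSCs and chr12:87773933-87774251 in L-EPSCs.

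The acetylated starts of Esrrb were the ones furthest downstream. The start of Esrrb-005, 42 bp before the ATG that 3 of the transcripts share, and that of Esrrb-004, a non-coding transcript starting at chr12:87845359, were inside H3K27ac peaks in all 3 states. The first start, that of Esrrb-001, was not within 1 kb of an H3K27ac or an H3K4me1 peak in any state, and its nearest acetylated base was 34.6 kb away in ESCs. The starts at chr12:87762594 and chr12:87762833, which head 4 of the transcripts, had H3K4me1 within 1 kb in every state and no H3K27ac. Their widest H3K4me1 peak was 1358 bp wide in ESCs and wider in the EPSCs, at 2653 bp in D-EPSCs or 3173 bp in L-EPSCs.

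**Figure D4:**
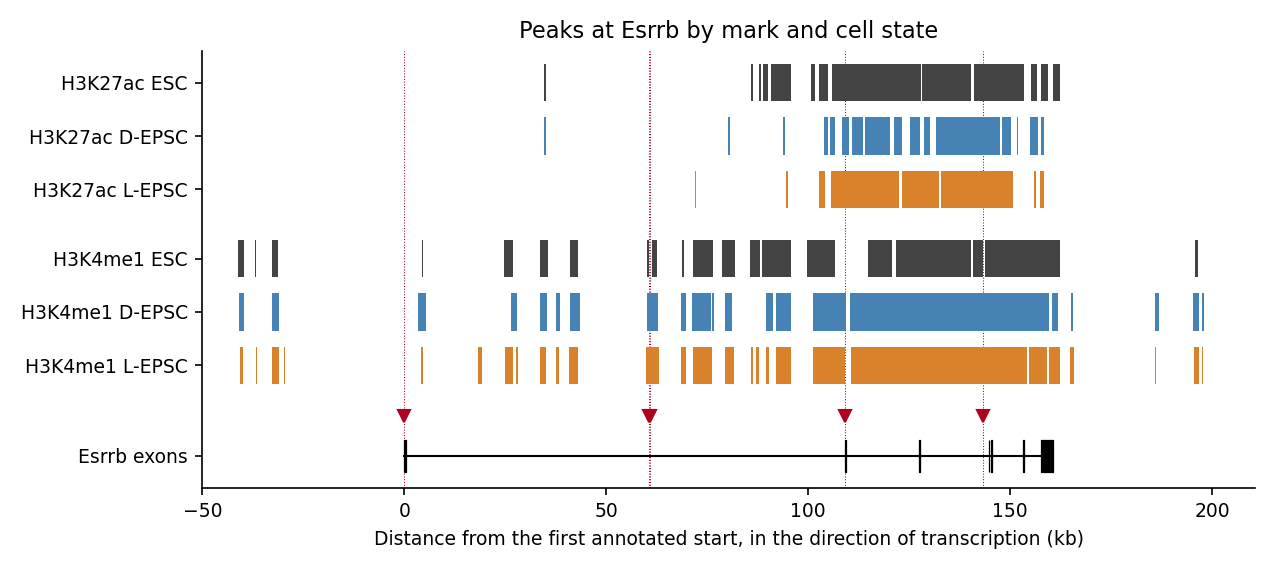
Peaks of each list at Esrrb against the distance from its first annotated start in kb, with exons of Esrrb-001 as black bars and the 5 annotated starts as red triangles, a pair of which overlap at this scale. Grey bars are ESC peaks, blue D-EPSC and orange L-EPSC. The acetylated domain begins near the start of Esrrb-005, 109 kb in, and the ESC H3K4me1 track is interrupted there over 8067 bp.

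H3K4me1 at Esrrb was as wide in the EPSCs as in ESCs, and its layout at the acetylated start differed. The window held 21 peaks over 83.6 kb in ESCs, 21 over 89.9 kb in D-EPSCs and 27 over 90.5 kb in L-EPSCs, with log2 ratios of 0.11 in each EPSC, above 74.3% and 79.6% of genes. In ESCs a stretch of 8067 bp around the Esrrb-005 start, chr12:87808671-87816737, was acetylated without H3K4me1, and the nearest H3K4me1 peak was 2.40 kb from the start. In D-EPSCs the corresponding stretch was 808 bp and in L-EPSCs 1266 bp, and neither held the start itself. In the EPSC lists H3K4me1 thus reached close to the second exon from both sides, under an H3K27ac peak that all 3 states had. Acetylated bases of the window that lacked H3K4me1 came to 9.86 kb in ESCs, against 0.808 and 1.27 kb in the D-EPSC and L-EPSC lists.

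After this stretch the H3K4me1 of the EPSCs formed domains that were among the widest of their lists. A D-EPSC peak of 49356 bp, chr12:87812300-87861655, was the rank of 7 by width among 102751 peaks. An L-EPSC peak of 43585 bp, chr12:87812527-87856111, was the rank of 3 among 105306. In ESCs the widest H3K4me1 peak at Esrrb was 18656 bp, rank 494 of 107222. The joined region that contains them, chr12:87812300-87864409, was covered over 45654 bp in ESCs, against 50775 and 50969 bp in the D-EPSC and L-EPSC lists, so the bases differed far less than the peak widths.

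All told, 14 of the 22 joined H3K4me1 regions at Esrrb were in all states, none was ESC only, 2 were shared by ESCs and L-EPSCs and 6 were in EPSCs only. The other wide shared regions were chr12:87801808-87811388 and chr12:87790706-87797873. The regions missing from D-EPSCs were chr12:87787561-87790063 in intron 1 and chr12:87665138-87665640 upstream. The widest EPSC-only regions were chr12:87866734-87867785 and chr12:87887960-87888877 downstream and chr12:87739571-87740608 in intron 1.

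**Figure D5:**
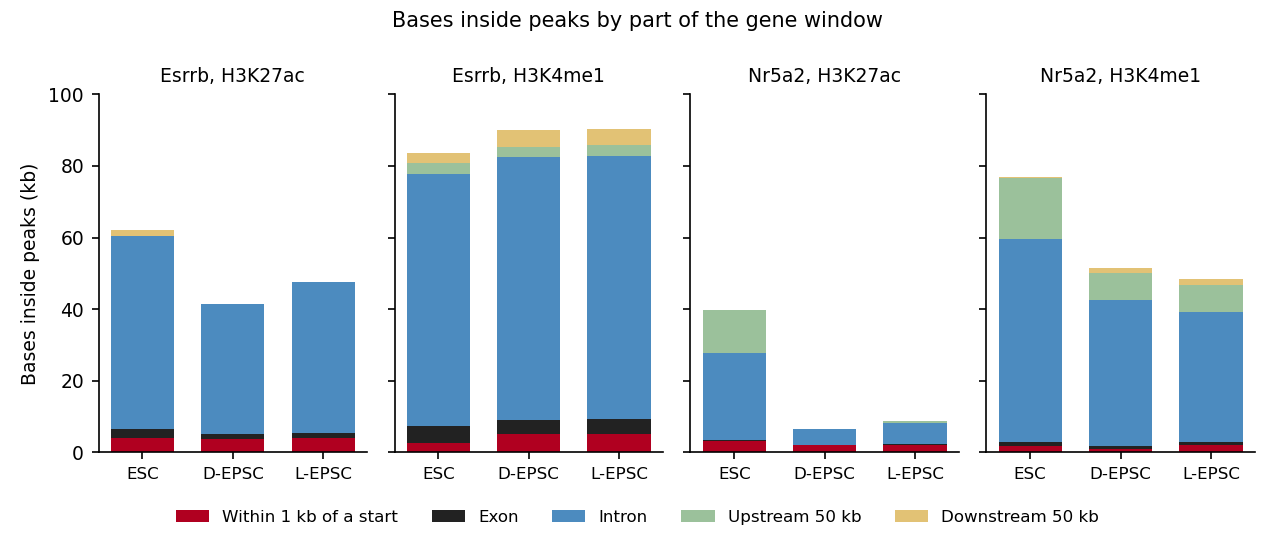
Bases inside peaks, in kb, by part of the gene window (stacked colours), for each gene, mark and state, with 1 list behind each bar. Esrrb H3K27ac goes from 62.1 kb in ESCs to 41.4 and 47.6 kb, and Nr5a2 H3K27ac from 39.8 kb to 6.54 and 8.72 kb, with the upstream part at 12.1 kb in ESCs and under 1 kb in the EPSCs.

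The motifs of the receptors themselves were searched in these regions, since both receptors bind regulatory DNA of pluripotency genes. The estrogen-related receptor form was TCAAGGTCA and the Nr5a2 form TCAAGGCCA, each on either strand. In the central 300 bases of the joined H3K27ac regions, 1 of 13 at Esrrb held TCAAGGCCA and none held TCAAGGTCA, and none of the 33 at Nr5a2 held either. The shares over all 70360 such regions were 1.42% for TCAAGGTCA and 2.31% for TCAAGGCCA. In the centres of H3K4me1 regions, 2 of 22 at Esrrb held both, and 1 of 31 at Nr5a2 held TCAAGGCCA, beside 1.70% and 1.92% of all 124744. None of the 250-base windows printed above holds either motif, beside 0.331% and 0.573% of the windows before 22350 gene starts that do.

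Counted over all acetylated bases, both forms were more frequent at Esrrb than in the lists at large. Of the estrogen-related receptor form there were 5 matches in ESC peaks, 6 in D-EPSC peaks and 6 in L-EPSC peaks of the Esrrb window, or 0.805, 1.45 and 1.26 per 10 kb, beside 0.490, 0.429 and 0.514 in the genome. Nr5a2 had 0 of this form in each state. Matches of the Nr5a2 form numbered 9, 5 and 5 at Esrrb, or 1.45, 1.21 and 1.05 per 10 kb beside 0.882, 0.718 and 0.729 in the genome, and 4, 0 and 0 at Nr5a2. With so few matches no difference was tested. The wide domain holds 6 TCAAGGTCA matches, and 2 of them fall in a gap between ESC H3K27ac peaks and inside the H3K27ac peaks of both EPSCs. Matches from 4 places are printed with 36 bases on either side, in the direction in which the motif reads and with the motif in capitals, to show a match acetylated in every state, a match acetylated in the EPSC lists only, a pair in an ESC-only region of Esrrb and a match in an ESC-only region of Nr5a2.
Esrrb, acetylated in all states (chr12:87844465-87844545, plus strand): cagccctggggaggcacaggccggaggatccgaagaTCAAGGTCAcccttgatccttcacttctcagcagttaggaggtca
Esrrb, acetylated in both EPSCs and not in ESCs (chr12:87842973-87843053, plus strand): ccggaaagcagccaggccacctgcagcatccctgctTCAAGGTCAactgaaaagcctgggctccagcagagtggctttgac
Esrrb, acetylated in ESCs only (chr12:87787979-87788059, plus strand): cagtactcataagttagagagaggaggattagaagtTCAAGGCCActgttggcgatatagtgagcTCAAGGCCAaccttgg
Nr5a2, acetylated in ESCs only (chr1:138865891-138865971, minus strand): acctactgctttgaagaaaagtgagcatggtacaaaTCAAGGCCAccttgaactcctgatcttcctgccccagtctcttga
The Nr5a2 form is also part of a common repeat, the B1 short interspersed element, in many copies of which it is followed by GCCTG. Of the 9 matches in ESC peaks at Esrrb 4 were followed so, and of the 4 at Nr5a2 3 were, beside 42.9% of the 9467 matches in all ESC H3K27ac peaks. None of the matches printed above is among them, but only an exact GCCTG right after the Nr5a2 form was looked for. Repeat copies without it, and copies that hold the estrogen-related receptor form, were not screened. Whether the printed matches lie in a repeat is therefore not known, and the part of this repeat in the counts was not tested.

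Other genes of the naive network were read in the same way, from a list of 20. Of these, 19 had at least 1 kb of ESC H3K27ac, and 11 were at least 2-fold lower in D-EPSCs and 14 in L-EPSCs, with none 2-fold higher. Of all genes 65.5% and 82.2% were 2-fold lower, and 1.11% and 0.473% were 2-fold higher. The list was thus not lower more often than genes at large. Its median ratios were -1.15 and -1.29, beside -1.36 and -1.95 over all genes. The comparisons share the ESC list, and 62.0% of all genes were 2-fold lower in both. The 10 genes of this list that were so were the Krüppel-like factors Klf4 and Klf5, the T-box factor Tbx3, Tfcp2l1, Prdm14, Sall4, Tcl1, Stat3, which transmits the LIF signal, Dppa3 and the growth factor gene Fgf4. In D-EPSCs the ratios ran from -3.58 at Tbx3 to -0.44 at Klf2, and in L-EPSCs from -2.41 at Tcl1 to -0.71 at Pou5f1, which encodes Oct4. The L-EPSC ratio of Esrrb, -0.38, was above the whole of this range, and its D-EPSC ratio, -0.59, was below those of Klf2, Pou5f1 (-0.55) and Gbx2 (-0.56). The ratios of Nr5a2 lay near the lower end, with only Tbx3 lower in D-EPSCs and Stat3 (-2.25) and Tcl1 lower in L-EPSCs. None of the 20 passed 2-fold for H3K4me1 in either EPSC.

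The closest relatives of the members had little acetylation to compare. Esrra, a regulator of mitochondrial genes, had 8.32 kb of H3K27ac in ESCs, against 5.77 and 3.82 kb in the D-EPSC and L-EPSC lists. Esrrg had 1.68 kb in ESCs and is listed at 0 in both EPSCs. Nr5a1, the steroidogenic factor, had 8.58, 3.79 and 2.47 kb. Among 26 other nuclear receptors, 17 had at least 1 kb in ESCs, and 9 were 2-fold lower in D-EPSCs and 12 in L-EPSCs, 8 of them in both (Nr1d1, Nr2c1, Nr2c2, Nr2e3, Nr4a1, Rara, Rarg and Rxra). The shares of all genes were 65.5%, 82.2% and, in both, 62.0%. The median ratios of this list were -1.17 and -1.73, beside -1.36 and -1.95 over all genes. The orphan receptor Nr6a1, known to repress Pou5f1, was the one gene of these lists with at least 1 kb in ESCs that was 2-fold higher in an EPSC, at 17.1 kb in D-EPSCs, 8.07 kb in ESCs and 1.60 kb in L-EPSCs. The ends of the range were Nr1d1 (-2.68) and Nr6a1 (1.08) in D-EPSCs, and in L-EPSCs Nr2e3, listed at 0, and Rxrb (0.36).

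Across all genes the members were not each other's likeness. The distance between 2 genes was taken over 6 values, the log2 of the percent of the window covered in each list plus 1. For Esrrb the 5 nearest of 22347 genes were Rad21, Ezr, Cdc5l, Atf7ip and Gm5607, the nearest at a distance of 0.208. For Nr5a2 they were St3gal2, Adck5, Mycl1, Ctnnd1 and Casc1, the nearest at 0.183. Esrrb and Nr5a2 were 2.98 apart, with 4865 genes nearer to Esrrb and 9300 nearer to Nr5a2.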

How the data were processed

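ChIP-seq of H3K4me1 and H3K27ac and 3 input libraries were made by the authors from J1 ESCs, D-EPSCs and L-EPSCs. Per the labels and the study's methods, reads were trimmed with Trim Galore 0.6.3 and cutadapt, aligned to mm9 with Bowtie2 2.3.5, which kept proper pairs only, and sorted with SAMtools 1.10, and broad peaks were called with MACS against input. The deposited values are the start and end positions of peaks, in 6 lists with no score, coverage or depth. The peak threshold, and whether the 2 replicates of a mark were pooled before calling, are not given in the sources used here. Broad calling joins nearby enrichment, so peak number and width depend on depth as well as on the mark. Covered bases were used as the main measure, and they depend on the size of the list too.

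Starts were read as 0-based and are printed 1-based. Python 3.11.15, numpy 2.4.6 and matplotlib 3.10.9 were used with the NCBIM37 (mm9) genome and GENCODE M1. For each protein-coding gene the bases inside peaks were summed over its span plus 50 kb on either side. A gene counted as changed at 2-fold, among genes with at least 1 kb of ESC peaks. A promoter was the 1 kb on either side of an annotated start, and peaks of different states were joined when they overlapped or touched. The interval code was tested on simulated data, with 0 errors in 200 pairs of lists. The members, the gene lists and the motifs were chosen with earlier results of these data known. In each window and mark the 3 widest regions of each class of presence were named, and of each gene list those past 2-fold in both EPSCs and the ends of the range. With 1 list for each group no test was run. The alternatives tried were other windows, other cuts of the lists, peak numbers, shares of the list, joined peaks and other overlap rules.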

Additional observations from a re-analysis of the deposited data

Results flagged for a closer look

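The EPSCs differed from ESCs in opposite directions in a few measures of the members. With 1 list for each state these differences were not tested. The number of H3K27ac peaks at Esrrb was 3 higher in D-EPSCs than in ESCs (16 against 13), and the difference in L-EPSCs was -5 (8 against 13). Over the wide domain of the gene body D-EPSCs had 10 peaks, and ESCs and L-EPSCs had 3 each, so the difference of L-EPSCs lay outside the domain. The number of H3K4me1 peaks at Nr5a2 differed from ESCs by -7 in D-EPSCs and by 1 in L-EPSCs. H3K4me1 within 1 kb of the Nr5a2 starts differed from the 1.83 kb of ESCs by -0.954 kb in D-EPSCs and by 0.23 kb in L-EPSCs, where a single peak of 9900 bp ran over the Nr5a2-202 start. Causes of these differences were not tested.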

How the results depend on the processing

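Each of the 8 log2 ratios was recomputed under 10 alternatives. Of the 80 values 68 stayed within 1.5-fold of the ratio reported, 12 moved further and 5 had the other sign. With peaks of at least 500 bp, windows of the gene span alone or with 10 or 100 kb, the widest 50% of each list, and peaks within 1 kb joined, no ratio moved that far. The place of Nr5a2 among all genes for H3K27ac did move. In D-EPSCs 37.8% of genes were lower with the span alone, 31.3% with 10 kb, 8.78% with 100 kb and 29.0% with the widest 50%. In L-EPSCs these shares were 60.4%, 57.2%, 37.9% and 55.4%. The shares reported were 13.9% and 41.9%. The ratio of H3K27ac at Nr5a2 in D-EPSCs moved from -2.60 to -2.00 with lists of equal length and -0.74 with equal covered bases. By number of peaks it was -4, and as a share of the list -1.33. In L-EPSCs it moved from -2.19 to -1.58, -0.32, -3 and -0.54. H3K27ac at Esrrb moved from -0.59 to 0.30 by number of peaks and 0.69 as a share of the list in D-EPSCs, and from -0.38 to 1.26 as a share of the list in L-EPSCs. H3K4me1 at Nr5a2 in L-EPSCs moved from -0.67 to 0.046 by number of peaks. Of 40 counts 27 stayed within 1.5-fold and 13 moved, among them the ESC-only H3K4me1 regions at Nr5a2, 9 as reported, 14 where a state had to cover 50% of the region and 5 with regions joined over 1 kb. The order of Esrrb above Nr5a2 in H3K27ac held under all 10 alternatives in both EPSCs, although the share of the list could not have changed it. No paired analysis was possible because each group has 1 list. The positions alone cannot show signal height, so a weaker peak and a peak of equal height in a shallower library cannot be told apart.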

Other observations

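The overlap of the 2 marks within each state also set the genes apart. At Esrrb 62.5% of the H3K4me1 bases were acetylated in ESCs, against 45.1% and 51.3% in the D-EPSC and L-EPSC lists. At Nr5a2 the values were 41.6%, 10.1% and 16.6%, and over the genome 38.4%, 18.5% and 16.5%. In the other direction, 84.1%, 98.0% and 97.3% of the acetylated bases at Esrrb carried H3K4me1, beside 79.0%, 78.1% and 83.5% over the genome. At Nr5a2 the corresponding values were 80.5%, 79.5% and 92.3%. The RefSeq starts of both genes, placed by an exact match of their GRCm38.p6 promoter windows in mm9, were at the GENCODE bases for Esrrb-001, Esrrb-002 and Nr5a2-202, and for Nr5a2-201 at chr1:138857025, next to the GENCODE start at chr1:138857004.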
